A study of Mus musculus with 9 samples.

Results

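The genes described here are 42 interferon-stimulated genes outside the families of interferon-inducible GTPases, the guanylate-binding proteins and the immunity-related GTPases. They were chosen by symbol, and no level or change in these libraries was part of the rule. Earlier results of these data were known when the list was chosen. They are 42 of the 45321 genes of the GENCODE M21 mouse annotation. A filter on low counts left 41 of them among the 14011 genes that were tested. The exception was Oas2, with 35 estimated counts over all libraries. Mx1 was kept in the list although its product is a dynamin-like GTPase, and mice of the C57BL/6 strain carry a disrupted Mx1.

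RNA was sequenced from CD4+ T cells of the spleen of C57BL/6 mice, which were purified untouched, that is by removing the other cells. The study set compound 10, a chemical inhibitor directed at NFAT:AP-1 (the transcription factors NFAT and AP-1 acting together), against its vehicle, dimethyl sulfoxide (DMSO). Stimulation was with PMA, which activates protein kinase C, and ionomycin, which raises intracellular calcium, and together they stand in for signalling by the T cell receptor. The 9 libraries fell into 4 groups. In 3 libraries the cells had 12.5 µM compound 10 for 1 h and then 10 nM PMA with 1 µM ionomycin for 2 h. In 2 libraries they had DMSO for 1 h and then the same stimulation. In 2 libraries they had 12.5 µM compound 10 for 1 h and were left unstimulated, and in the other 2 they had DMSO for 1 h and were left unstimulated. No time in culture after the first 1 h is recorded here for unstimulated cells. Stimulation therefore cannot be told apart from longer culture or longer time with compound 10. The labels do not say whether libraries of 1 group stem from different mice or cultures, so p-values measure the spread between these libraries, which may be technical.

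Interferons are secreted proteins that put cells into an antiviral state. Type I interferons act through the receptor of Ifnar1 and Ifnar2 and through transcription factors, STAT2 and IRF9 among them, that bind interferon-stimulated response elements. Interferon gamma, which activated T cells secrete, acts through a receptor of its own, made of Ifngr1 and Ifngr2. The genes induced by these routes encode chemokines, proteins that bind or cut foreign RNA, the ubiquitin-like modifier ISG15 with its enzymes, and regulators of the response itself.

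The stretches around the transcription starts of 4 of the genes are printed because these genes differ in their promoter motifs and carry many of the results below. Each runs from 250 bases before to 50 bases after the start, from RefSeq on GRCm38.p6, and all 4 lie on the minus strand, at chr5:92348840-92349139 for Cxcl10, chr2:62646206-62646505 for Ifih1, chr4:156200769-156201068 for Isg15 and chr16:35938978-35939277 for Dtx3l. Capitals mark matches to the core of the interferon-stimulated response element (GAAA, any 2 bases, GAAA) and to TGANTCA. The latter is a loose pattern for the AP-1 site in which N is any base. Each was searched on both strands.
Cxcl10: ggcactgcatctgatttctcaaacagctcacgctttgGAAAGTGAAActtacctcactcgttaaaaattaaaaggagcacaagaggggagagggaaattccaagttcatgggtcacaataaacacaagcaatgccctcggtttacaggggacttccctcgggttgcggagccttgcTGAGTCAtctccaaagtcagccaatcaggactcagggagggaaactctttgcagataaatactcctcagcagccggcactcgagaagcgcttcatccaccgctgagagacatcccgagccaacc
Ifih1: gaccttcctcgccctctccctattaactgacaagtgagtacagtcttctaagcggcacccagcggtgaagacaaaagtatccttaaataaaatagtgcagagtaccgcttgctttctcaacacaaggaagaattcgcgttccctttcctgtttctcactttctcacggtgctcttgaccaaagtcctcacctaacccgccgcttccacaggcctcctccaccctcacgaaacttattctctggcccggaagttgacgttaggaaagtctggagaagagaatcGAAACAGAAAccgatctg
Isg15: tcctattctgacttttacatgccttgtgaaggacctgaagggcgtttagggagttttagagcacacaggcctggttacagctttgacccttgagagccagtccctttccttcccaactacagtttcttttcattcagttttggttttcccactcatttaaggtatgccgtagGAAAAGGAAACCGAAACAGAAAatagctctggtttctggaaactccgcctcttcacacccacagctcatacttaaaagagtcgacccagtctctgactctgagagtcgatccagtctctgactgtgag
Dtx3l: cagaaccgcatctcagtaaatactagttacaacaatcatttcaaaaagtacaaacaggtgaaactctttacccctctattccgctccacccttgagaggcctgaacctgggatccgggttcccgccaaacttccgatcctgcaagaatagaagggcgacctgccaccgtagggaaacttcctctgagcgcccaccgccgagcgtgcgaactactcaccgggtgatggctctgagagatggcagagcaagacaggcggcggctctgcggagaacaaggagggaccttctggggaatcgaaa
The Cxcl10 stretch held 1 match to each motif, with its first base at -213 for the response element and at -74 for the AP-1 site, counted from the start. The Isg15 stretch held 3 overlapping matches to the response element, at -78, -72 and -66. That of Ifih1 held 1 match, at 32 after the start, and that of Dtx3l held neither motif.

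Of the 42 genes, 33 had such a promoter window. The response element core was found in the windows of 16 of these 33 genes (48.5%), against 3.99% of the 27025 genes with a window. TGANTCA was found in 9 (27.3%), against 8.97% of all. The matches in Trim30a, Ifitm3 and Ifit3 had A or T as the middle base, and the others had C or G. A match describes the letters only and is not a bound site.

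The libraries held 10669821 to 21852830 estimated counts. Nuclear ribosomal RNA took 1.80% to 26.5% of them, with the highest share in library 2 of each vehicle group (13.9% in stimulated and 26.5% in unstimulated cells). Of 12 CD4 T cell identity genes 7 were higher with compound 10 in the stimulated state and 5 in the other. Over all tested genes 11.7% and 4.45% were higher. Markers of monocytes, macrophages and dendritic cells summed to 10.1 to 19.1 CPM (counts scaled to library size) in every library, with Fcgr1 at 0 throughout, and none of the 5 tested of 14 was called for compound 10. The 8 natural killer cell markers summed to 25.7 to 36.9 CPM in stimulated cells with compound 10, against 21.5 to 25.1 CPM with vehicle. In unstimulated cells they summed to 17.8 to 20.0 CPM with compound 10, against 10.4 to 13.8 CPM with vehicle, and of 6 tested, compound 10 gave 4 higher with stimulation and 1 without. No B cell marker was called for compound 10 among 7 tested of 10. The part of these differences in the results below was not tested, and in bulk RNA fewer cells of a type and less RNA per cell cannot be told apart.

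Most of the 42 genes were expressed at a low level. On the TPM scale, which corrects for transcript length and gives every library the same sum, Ifi27l2a, a small interferon-induced protein, had the highest mean over the 9 libraries at 226 TPM, with a range of 157 to 316 TPM. It was followed by Cxcl10 at 79.6 TPM, Isg15 at 39.5 TPM, Lgals9 at 36.0 TPM, Ifi35 at 31.2 TPM and Bst2 at 29.4 TPM. Cxcl10 had the widest range of these 6, at 4.18 to 225 TPM. The lowest means were those of Oas2 at 0.0940 TPM, Mx1 at 0.194 TPM, Cxcl9 at 0.260 TPM and Ifi44 at 0.303 TPM.

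**Figure D1:**
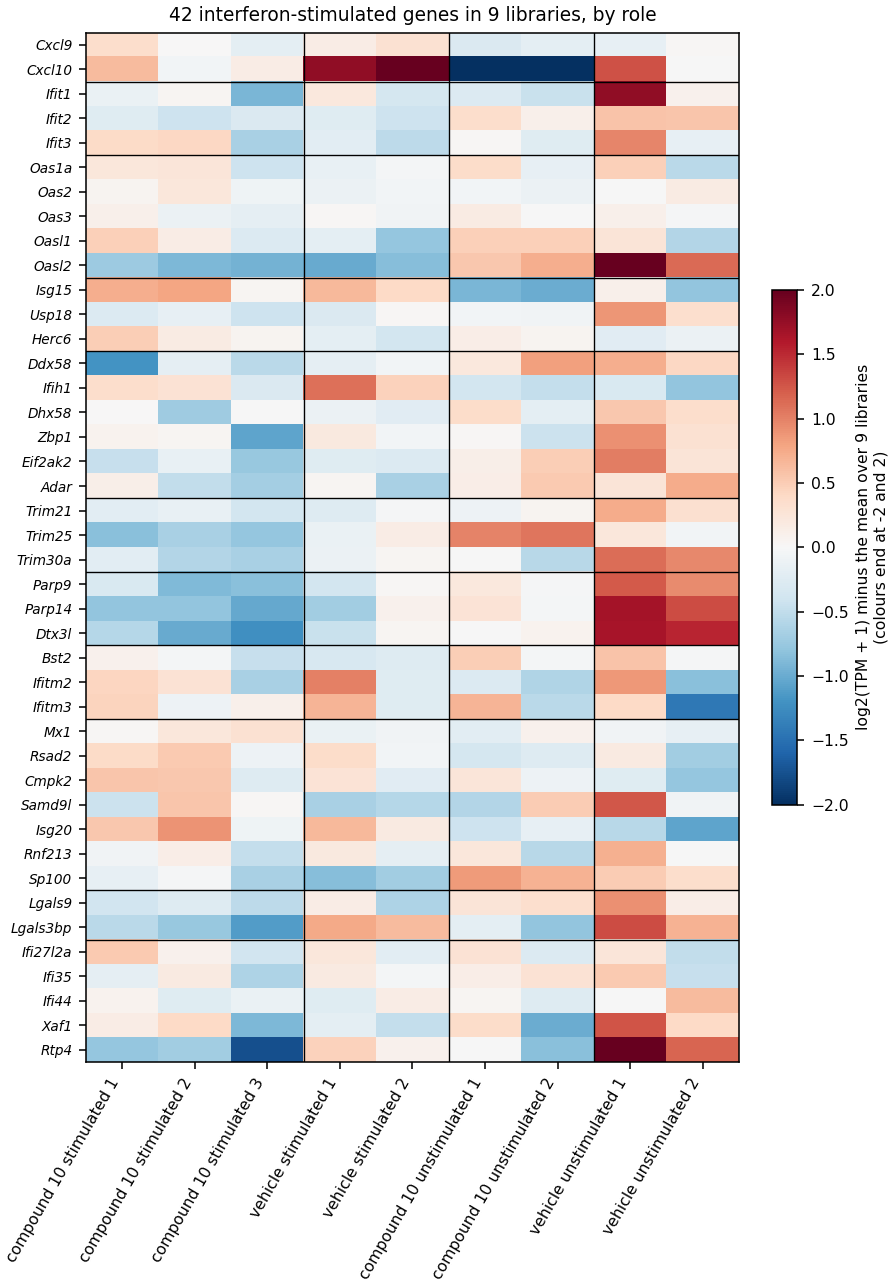
Level of each of the 42 genes (rows, grouped by role) in each of the 9 libraries (columns), as log2(TPM + 1) minus the gene's mean over the libraries, with colours ending at -2 and 2. Cxcl10 is darkest in both directions, and Parp9, Parp14, Dtx3l, Trim30a and Rtp4 are red in both unstimulated vehicle libraries.

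With compound 10 a minority of these genes were lower in each state, and few or none were higher. In stimulated cells 6 of the 41 tested genes were lower with compound 10 (14.6%) and 2 were higher (4.88%), where 11.4% of all tested genes were lower and 11.7% higher (23.1% in either direction). In unstimulated cells 8 were lower (19.5%) and none was higher, where 2.91% of all tested genes were lower and 4.45% higher (7.36% in either direction). A gene was called at an adjusted p under 0.05 in edgeR's quasi-likelihood test with Benjamini-Hochberg adjustment over all 14011 genes. The median log2 fold change of the 41 genes was -0.09 in stimulated cells, against 0.0019 over all genes, and -0.50 in unstimulated cells, against -0.01 over all genes.

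Cxcl10, Lgals3bp, Parp14 and Rtp4 were lower in both states, which is 66.7% of the 6 called lower in stimulated cells and 50% of the 8 in unstimulated cells. These 2 comparisons share no library. The same overlap was not counted over all tested genes, so these shares do not set the listed genes apart. Ifih1 and Trim25 were called lower in stimulated cells alone, and Dtx3l, Parp9, Trim30a and Usp18 in unstimulated cells alone, which does not show that their effect differed between the states. The 2 genes called higher, Herc6 and Sp100, were called in stimulated cells.

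These counts moved with single libraries, as did those over all tested genes. Without vehicle library 2 of stimulated cells 3 genes were called there, namely Cxcl10, Ifih1 and Lgals3bp, while over all genes 1973 were called, against 3234 with all libraries. In unstimulated cells 4 and 3 genes were called without vehicle library 1 or 2, and 3 and 1 without compound 10 library 1 or 2. Over all genes the calls in unstimulated cells were 263 and 269 without vehicle library 1 or 2 and 174 and 278 without compound 10 library 1 or 2, against 1031 with all libraries. The 1 gene called without compound 10 library 2 was Cxcl10. Without library 2 of both vehicle groups, the libraries richest in ribosomal RNA, 3 genes were called in stimulated and 4 in unstimulated cells. In unstimulated cells the libraries of the groups did not overlap, with compound 10 lower, for 20 of the 41 genes (48.8%), against 27.3% of all tested genes. With compound 10 higher the same held for 6 (14.6%), against 28.2% of all. In stimulated cells these numbers were 8 (19.5%) lower, against 23.1% of all, and 5 (12.2%) higher, against 24.2%.

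**Figure D2:**
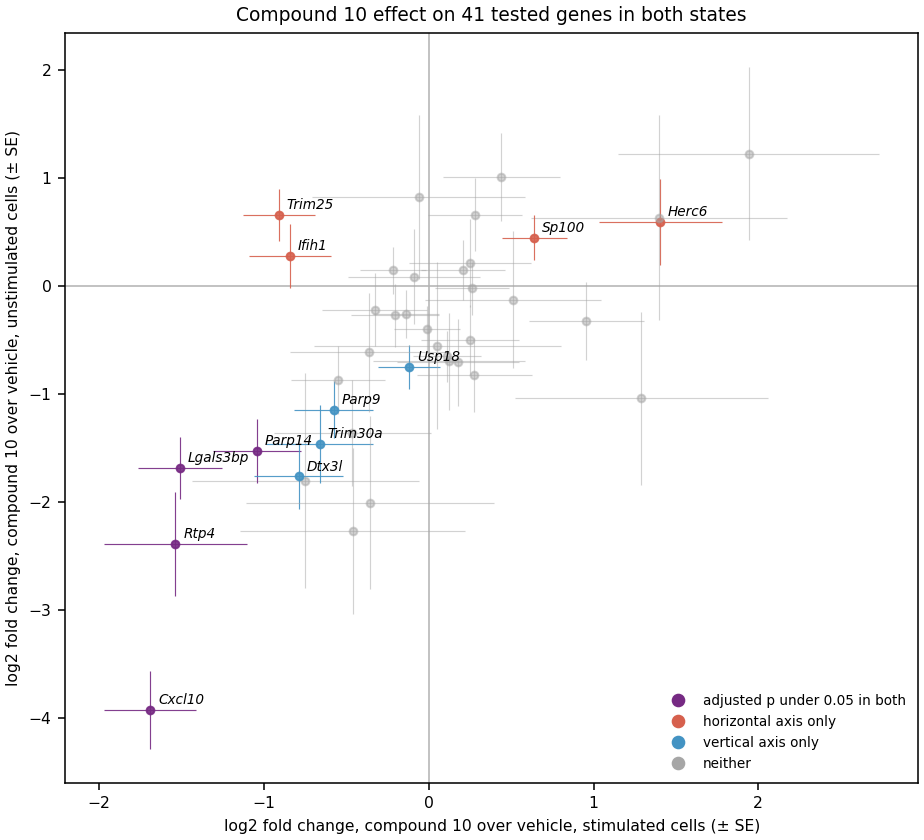
Log2 fold change of compound 10 over vehicle for the 41 tested genes, in stimulated cells (horizontal axis) and unstimulated cells (vertical axis), with bars of 1 standard error and colours for the comparison in which a gene was called. Cxcl10, Rtp4, Lgals3bp and Parp14 lie in the lower left, and Trim25 and Ifih1 lie left of 0 on the horizontal axis and above 0 on the vertical one.

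Cxcl10 (chr5:92346638-92348889, minus strand of GRCm38 in GENCODE M21) encodes a chemokine that attracts T cells bearing the receptor CXCR3, and it had the largest fall of the 41 genes in both states. It stood at 84.3, 48.4 and 66.95 CPM in stimulated cells with compound 10, against 173 and 257 CPM in stimulated cells with vehicle. Without stimulation the gene stood at 5.72 and 3.87 CPM with compound 10, against 88.9 and 56.3 CPM with vehicle. All compound 10 libraries were below both vehicle libraries of their state, and stimulated cells with compound 10 lay in the range of unstimulated cells with vehicle or close to it. The log2 fold change was -1.69 in stimulated cells (SE 0.28, adjusted p = 0.00151) and -3.92 in unstimulated cells (SE 0.36, adjusted p = 0.000309), and both calls held under every alternative tried, each library left out included. Cxcl9, a related chemokine that binds the same receptor, was near the limit of detection. It had 1.76, 0.651 and 0.349 CPM in stimulated cells with compound 10, against 1.25 and 1.86 CPM with vehicle, and at most 0.839 CPM in any unstimulated library. It was not called for compound 10 in either state.

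The IFIT proteins bind viral RNA, and none of their 3 genes was called for compound 10. Ifit1 was at 3.29, 3.78 and 0.698 CPM in stimulated cells with compound 10, against 4.80 and 2.40 CPM with vehicle. Unstimulated, it was at 2.21 and 1.49 CPM with compound 10, against 13.7 and 4.19 CPM with vehicle. The unstimulated groups did not overlap, the vehicle libraries were far apart, and the gene was not called (log2 fold change -2.27, SE 0.77, adjusted p = 0.117). Ifit2 and Ifit3 had log2 fold changes of 0.12 and 1.29 in stimulated cells and of -0.70 and -1.04 in unstimulated cells, with adjusted p-values of 0.269 to 0.886.

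The oligoadenylate synthetases make a messenger that activates RNase L, and none of the 4 tested of their 5 genes was called for compound 10. Oas1a had 6.57, 6.06 and 3.75 CPM in stimulated cells with compound 10, against 4.23 and 4.98 CPM with vehicle. Its values in unstimulated cells were 6.04 and 3.27 CPM with compound 10, against 5.26 and 2.78 CPM with vehicle. The groups overlapped in both states. Oasl1, which in the mouse lowers production of IRF7, had a log2 fold change of 1.94 in stimulated cells (SE 0.79, adjusted p = 0.107) at 3.77, 2.15 and 1.31 CPM with compound 10, against 1.10 and 0.120 CPM with vehicle. The groups did not overlap, and the call was missed. Oas3 had fold changes near 0 in both states (-0.09 and 0.09 on the log2 scale).

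Of the ISG15 system, Isg15 itself encodes the modifier, Herc6 the mouse ligase that attaches it and Usp18 the protease that removes it. Isg15 was not called for compound 10, at 44.0, 42.3 and 29.4 CPM in stimulated cells with compound 10, against 38.5 and 33.1 CPM with vehicle. In cells left unstimulated it had 10.7 and 9.24 CPM with compound 10, against 17.4 and 14.0 CPM with vehicle. The stimulated groups overlapped and the unstimulated ones did not (log2 fold change -0.65, SE 0.24, adjusted p = 0.118).

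Herc6 was higher with compound 10 in stimulated cells, at 8.81, 5.15 and 5.41 CPM, against 2.87 and 1.98 CPM with vehicle (log2 fold change 1.41, SE 0.37, adjusted p = 0.0171). It had 4.48 and 3.54 CPM in unstimulated cells with compound 10, against 1.87 and 3.42 CPM with vehicle. The groups did not overlap in either state, and in unstimulated cells the gene was not called. In stimulated cells the call was lost without vehicle library 2 (adjusted p = 0.139) or compound 10 library 1 (0.0599). Usp18 was lower with compound 10 in unstimulated cells, at 15.3 and 13.5 CPM, against 24.1 and 24.3 CPM with vehicle (log2 fold change -0.75, SE 0.21, adjusted p = 0.0459). It had 15.9, 15.6 and 15.8 CPM in stimulated cells with compound 10, against 14.7 and 19.6 CPM with vehicle. The unstimulated groups did not overlap, and the compound 10 libraries of stimulated cells lay between the vehicle ones. The Usp18 call was lost without any 1 of the 4 unstimulated libraries, with adjusted p-values of 0.164 and 0.184 without vehicle library 1 or 2 and of 0.171 and 0.249 without compound 10 library 1 or 2. It was also lost without compound 10 library 1 or 3 of stimulated cells (0.0613 and 0.0756), which enter through the shared estimate of the spread.

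Among the genes for sensors of foreign RNA and enzymes that act on it, 1 of 6 was called for compound 10. Ifih1, the cytosolic RNA helicase MDA5, was lower in stimulated cells with compound 10, at 17.4, 14.6 and 10.9 CPM, against 30.2 and 21.2 CPM with vehicle (log2 fold change -0.84, SE 0.25, adjusted p = 0.0291). In unstimulated cells it had 7.86 and 6.31 CPM with compound 10, against 6.84 and 4.84 CPM with vehicle. The groups did not overlap in stimulated cells and overlapped in unstimulated cells. The call was lost without vehicle library 1 (adjusted p = 0.261) or compound 10 library 3 (0.108).

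Its relatives Ddx58, which encodes RIG-I, and Dhx58, which encodes LGP2, had log2 fold changes of -0.01 and 0.05 with stimulation and -0.40 and -0.55 without. Zbp1, a sensor of left-handed nucleic acids, Eif2ak2, the kinase PKR, and Adar, which edits double-stranded RNA, had log2 fold changes of 0.25, -0.33 and -0.21 in stimulated cells. In unstimulated cells theirs were -0.50, -0.22 and -0.27. None of these 5 genes was called.

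The tripartite motif (TRIM) genes encode ubiquitin ligases, and 2 of the 3 were called. Trim25, known for its action on RIG-I, had 17.3, 13.4 and 17.5 CPM in stimulated cells with compound 10, against 24.5 and 35.7 CPM with vehicle (log2 fold change -0.91, SE 0.22, adjusted p = 0.00958). Without stimulation the gene had 53.5 and 44.9 CPM with compound 10, against 26.7 and 35.6 CPM with vehicle (log2 fold change 0.66, SE 0.24, adjusted p = 0.116). Thus the compound 10 libraries lay below both vehicle libraries in stimulated cells and above both in unstimulated cells. The call in stimulated cells was lost without vehicle library 2 (adjusted p = 0.13).

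Trim30a, which in the mouse restrains Toll-like receptor signalling, was lower with compound 10 in unstimulated cells, at 16.9 and 9.19 CPM, against 31.0 and 40.7 CPM with vehicle (log2 fold change -1.46, SE 0.36, adjusted p = 0.035). In stimulated cells it had 17.3, 7.95 and 11.6 CPM with compound 10, against 17.5 and 21.3 CPM with vehicle (log2 fold change -0.66, SE 0.33, adjusted p = 0.178). The groups did not overlap in either state, though compound 10 library 1 and vehicle library 1 of stimulated cells were nearly equal. The call in unstimulated cells was lost without any 1 of its 4 libraries, at adjusted p-values of 0.0862 and 0.186 without vehicle library 1 or 2 and 0.0521 and 0.201 without compound 10 library 1 or 2. It was also lost without vehicle library 1 or 2 or compound 10 library 3 of stimulated cells (0.0556, 0.0554 and 0.0609). Trim21, a cytosolic receptor for antibodies, was not called, with log2 fold changes of -0.46 in stimulated and -1.36 in unstimulated cells and at most 3.17 CPM.

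Parp9, Parp14 and Dtx3l encode a pair of partners in ADP-ribosylation and ubiquitination (PARP9 and DTX3L) and the ADP-ribosyltransferase PARP14, and all 3 were lower with compound 10 in unstimulated cells. Dtx3l stood at 29.6 and 27.7 CPM in unstimulated cells with compound 10, against 82.3 and 113 CPM with vehicle (log2 fold change -1.76, SE 0.30, adjusted p = 0.00617). In stimulated cells it stood at 20.99, 13.2 and 12.5 CPM with compound 10, against 20.0 and 33.9 CPM with vehicle (log2 fold change -0.79, SE 0.27, adjusted p = 0.0545). The unstimulated groups did not overlap and the stimulated ones did. The call in unstimulated cells was lost without vehicle library 2 (0.0513), or without compound 10 library 1 or 2 (0.0645 and 0.0623).

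Parp14 (chr16:35832874-35871544, minus strand) was lower in both states. It had 11.9, 13.0 and 8.29 CPM in stimulated cells with compound 10, against 15.9 and 29.9 CPM with vehicle (log2 fold change -1.04, SE 0.27, adjusted p = 0.0138). Unstimulated, it had 13.4 and 13.1 CPM with compound 10, against 35.1 and 41.6 CPM with vehicle (log2 fold change -1.53, SE 0.30, adjusted p = 0.0108). Neither pair of groups overlapped, and the vehicle libraries of stimulated cells were far apart. Without vehicle library 2 of stimulated cells the log2 fold change there was -0.52 (adjusted p = 0.244), and without compound 10 library 3 the adjusted p was 0.0571. In unstimulated cells the call was lost without vehicle library 2 (0.072) or compound 10 library 1 or 2 (0.0892 and 0.0827). Retained-intron transcripts, chiefly Parp14-202, together took most of the gene's TPM in each group. Their share was 76.0% in stimulated cells with compound 10 and 66.2% in stimulated cells with vehicle. It was 84.9% in unstimulated cells with compound 10 and 83.4% in unstimulated cells with vehicle. The protein-coding transcript Parp14-201 averaged 0.947 ± 0.367 TPM in stimulated cells with compound 10 (SD, n = 3), against 2.22 ± 0.865 TPM with vehicle (SD, n = 2). In unstimulated cells it averaged 1.33 ± 0.189 TPM with compound 10, against 4.04 ± 0.655 TPM with vehicle (SD, n = 2 each). Parp14-201 and Parp14-202 both had a lower mean with compound 10 than with vehicle in each state.

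Parp9 was lower in unstimulated cells with compound 10, at 15.8 and 13.1 CPM, against 30.3 and 33.6 CPM with vehicle (log2 fold change -1.15, SE 0.26, adjusted p = 0.0225). It had 14.3, 8.66 and 10.1 CPM in stimulated cells with compound 10, against 13.7 and 19.1 CPM with vehicle, and was not called there. The unstimulated groups did not overlap. The call was lost without any 1 of the 4 unstimulated libraries, at 0.0786 and 0.125 without vehicle library 1 or 2 and 0.0993 and 0.158 without compound 10 library 1 or 2. Parp9 and Dtx3l lie on opposite strands of chromosome 16, and their gene spans, introns included, overlap by 682 bases. The span of Parp9 also overlaps that of the antisense gene Gm15564, which had 31250 counts over all libraries against 2429 for Parp9. Whether the spliced transcripts share sequence was not checked. No source says that strand was used in counting, so reads in any shared sequence cannot be told apart. To that extent the Parp9 and Dtx3l values are uncertain. Gm15564 had 207, 108 and 277 CPM in stimulated cells with compound 10, against 111 and 371 CPM with vehicle. In cells left unstimulated it had 184 and 156 CPM with compound 10, against 174 and 481 CPM with vehicle, highest in the vehicle libraries that were also richest in ribosomal RNA.

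The membrane proteins that restrict virus release (Bst2, also called tetherin) or entry (Ifitm2 and Ifitm3) were not called for compound 10. Bst2 had 22.8, 19.2 and 16.9 CPM in stimulated cells with compound 10, against 15.7 and 17.0 CPM with vehicle. In unstimulated cells it had 24.0 and 15.0 CPM with compound 10, against 19.8 and 19.7 CPM with vehicle. Its groups overlapped in both states. Bst2 is also among 6 markers of plasmacytoid dendritic cells, which summed to 41.3 to 52.8 CPM in stimulated cells with compound 10, against 30.4 to 36.0 CPM with vehicle. In unstimulated cells they summed to 29.4 to 39.9 CPM with compound 10, against 33.8 to 37.0 CPM with vehicle. Of the 5 tested, Pacsin1 alone was called for compound 10, higher in stimulated cells (log2 fold change 0.90, SE 0.22, adjusted p = 0.00981), and Siglech was at 0.641 CPM or less in every library. The part of these markers in the Bst2 levels was not tested. Ifitm2 and Ifitm3 had at most 9.56 and 3.34 CPM, with log2 fold changes of -0.36 and -0.06 with stimulation and -0.61 and 0.82 without.

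Of 7 other antiviral effector genes, 1 was called for compound 10. Sp100, a protein of PML nuclear bodies, was higher in stimulated cells with compound 10, at 36.5, 37.4 and 28.1 CPM, against 20.5 and 23.1 CPM with vehicle (log2 fold change 0.64, SE 0.20, adjusted p = 0.0328). Without stimulation the gene had 59.9 and 47.4 CPM with compound 10, against 35.6 and 43.2 CPM with vehicle (log2 fold change 0.45, SE 0.21, adjusted p = 0.229). Compound 10 libraries lay above the vehicle libraries of their state in both. The call was lost without vehicle library 1 or 2 of stimulated cells (0.173 and 0.0886) or compound 10 library 1 or 2 (0.0858 and 0.078).

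Samd9l, a restrictor of translation, came close in stimulated cells, at 3.37, 6.45 and 4.80 CPM with compound 10, against 2.45 and 2.58 CPM with vehicle, without overlap (log2 fold change 0.96, SE 0.35, adjusted p = 0.0675). Rnf213, a large ubiquitin ligase, had 6.49, 6.64 and 5.24 CPM in stimulated cells with compound 10, against 9.30 and 8.69 CPM with vehicle, also without overlap (log2 fold change -0.55, SE 0.29, adjusted p = 0.195). Neither passed the test. Mx1 had 0.641, 1.24 and 1.05 CPM in stimulated cells with compound 10, against 0.261 and 0.480 CPM with vehicle, and was not called (adjusted p = 0.232). Rsad2 (viperin), its neighbour in function Cmpk2, which phosphorylates nucleotides, and the exonuclease gene Isg20 had log2 fold changes of 0.51, 0.44 and 0.28 with stimulation and -0.13, 1.01 and 0.66 in unstimulated cells. None of these 3 was called.

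Lgals3bp (chr11:118392751-118402092, minus strand) encodes a secreted glycoprotein that binds galectins, and its fall was of like size in both states. It had 9.62, 7.23 and 5.67 CPM in stimulated cells with compound 10, against 24.0 and 18.8 CPM with vehicle (log2 fold change -1.51, SE 0.26, adjusted p = 0.00129). Unstimulated, it had 9.22 and 5.92 CPM with compound 10, against 25.0 and 23.6 CPM with vehicle (log2 fold change -1.68, SE 0.29, adjusted p = 0.00583). No compound 10 library reached a vehicle library, whichever the state. The call in stimulated cells held under every alternative tried, and that in unstimulated cells was lost without compound 10 library 2 (0.0667). Lgals9, which encodes galectin-9, was not called, with log2 fold changes of -0.14 in stimulated and -0.26 in unstimulated cells.

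Of the remaining interferon-inducible genes, Rtp4 (chr16:23520291-23614222, plus strand), a chaperone of receptor transport, was lower with compound 10 in both states. It had 5.69, 5.54 and 2.18 CPM in stimulated cells with compound 10, against 14.7 and 11.5 CPM with vehicle (log2 fold change -1.54, SE 0.43, adjusted p = 0.0308). In cells left unstimulated it had 8.83 and 3.87 CPM with compound 10, against 40.8 and 25.5 CPM with vehicle (log2 fold change -2.39, SE 0.48, adjusted p = 0.0202). The groups did not overlap in either state. In stimulated cells the call was lost without vehicle library 1 or 2 (0.16 and 0.0825) or compound 10 library 2 (0.0626). In unstimulated cells it was lost without vehicle library 1 (0.0956) or compound 10 library 2 (0.0928), and without compound 10 library 1 the log2 fold change was -3.09.

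Ifi27l2a, Ifi35, Ifi44 and Xaf1 were not called for compound 10. Ifi27l2a, the most abundant of the 42 genes by TPM, had 120, 82.9 and 69.5 CPM in stimulated cells with compound 10, against 89.6 and 67.6 CPM with vehicle. Without stimulation the gene had 78.7 and 49.8 CPM with compound 10, against 60.5 and 55.6 CPM with vehicle. The groups overlapped in both states, and the log2 fold changes were 0.21 (SE 0.26) and 0.15 (SE 0.28). Ifi35 had log2 fold changes of -0.22 and 0.14, Xaf1, a pro-apoptotic factor, of 0.18 and -0.71, and the barely detected Ifi44 of -0.36 and -2.01, in stimulated and then unstimulated cells.

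**Figure D3:**
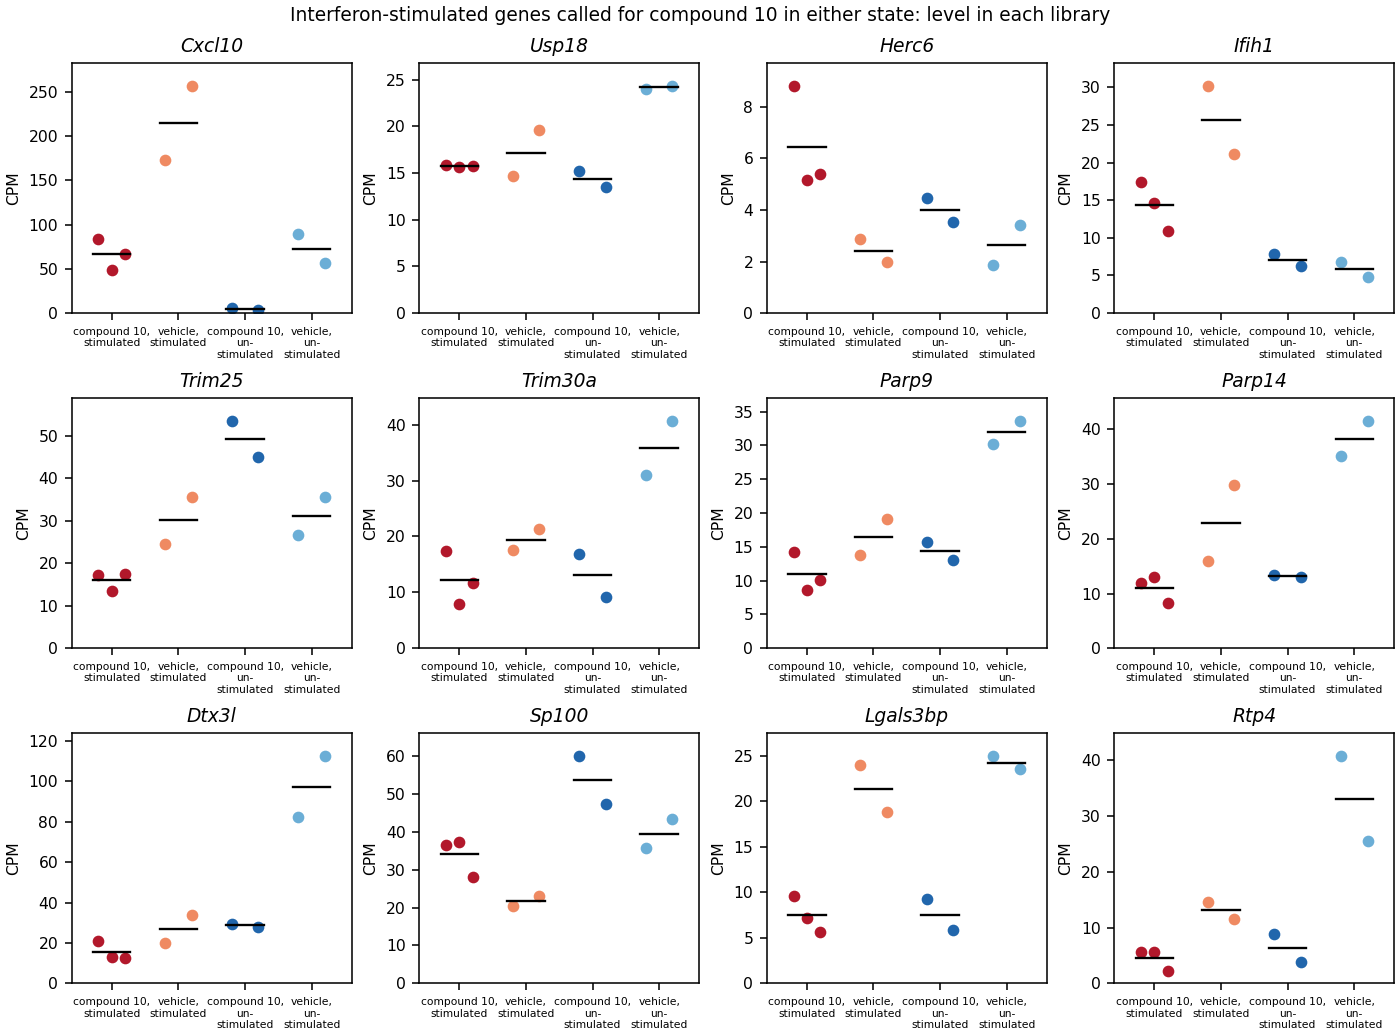
Level in CPM (vertical axes, starting at 0) of the 12 genes called for compound 10 in either state, with 1 point for each library and a bar at each group's mean. For Cxcl10, Lgals3bp and Rtp4 the compound 10 points lie below the vehicle points in both states.

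The effect of compound 10 itself differed between the states for 2 of the 41 genes (4.88%), where 1.03% of all tested genes passed the same test (0.421% upward and 0.607% downward). The states may also differ in time with compound 10, which cannot be told apart from stimulation. For Cxcl10 the log2 fold change in stimulated cells minus that in unstimulated cells was 2.23 (SE 0.45, adjusted p = 0.0429), as the fall was larger in unstimulated cells. For Trim25 the same difference was -1.57 (SE 0.32, adjusted p = 0.0421). Both calls lay close to the threshold. That of Cxcl10 was lost without vehicle library 1 of unstimulated cells (0.128), either compound 10 library of them (0.104 and 0.175), either vehicle library of stimulated cells (0.138 and 0.0665) or compound 10 library 1 or 3 of them (0.0651 and 0.11). That of Trim25 was lost without either vehicle library (0.153 and 0.0808) or either compound 10 library (0.177 and 0.0953) of unstimulated cells. It was also lost without either vehicle library (0.0545 and 0.129) or compound 10 library 1 or 3 (0.0646 and 0.0996) of stimulated cells. The other 39 genes did not pass, which does not show that compound 10 acted alike on them in both states, as the median SE of this difference over all genes was 0.44. The median difference was 0.60 over the 41 genes and 0.01 over all genes.

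Stimulation raised some of the genes and lowered others, in cells with compound 10 and in cells with vehicle. Time in culture may have differed along with it, as stated above. Under compound 10 stimulation raised 4 of the 41 genes, where 11% of all tested genes rose, and lowered 6, where 10.8% of all fell. In vehicle it raised 5, where 14.4% of all rose, and lowered 7, where 13.8% of all fell. Cxcl10, Ifih1, Isg15 and Isg20 rose in both, which is 100% of the 4 risers under compound 10 and 80.0% of the 5 in vehicle. Ddx58, Dtx3l, Ifit2, Oasl2 and Sp100 fell in both, which is 83.3% of the 6 that fell under compound 10 and 71.4% of the 7 in vehicle. The 2 comparisons share no library, but each shares its groups with the comparisons of compound 10 above. Here too the overlap was not counted over all tested genes. Under compound 10, 4 genes were called without library 1 and 4 without library 2 of its unstimulated cells. The calls over all genes fell as well. Without library 1, 918 rose and 709 fell, and without library 2, 760 rose and 746 fell. With all libraries 1542 rose and 1510 fell. Without library 2 of both vehicle groups, the libraries richest in ribosomal RNA, 4 genes were called in vehicle, and the calls of Cxcl10 (adjusted p = 0.155), Isg15 (0.0547), Ifit2 (0.193), Ddx58 (0.0976), Parp9 (0.0905), Sp100 (0.139), Samd9l (0.388) and Cmpk2 (0.178) were lost. The median log2 fold change of the 41 genes was 0.09 under compound 10 and -0.45 in vehicle, against 0.0036 and -0.05 over all genes. In vehicle the stimulated libraries lay below the unstimulated ones without overlap for 21 genes (51.2%), against 34.1% of all tested genes, and above them for 9 (22.0%), against 29.3% of all. Under compound 10 these numbers were 9 (22.0%) below, against 25.4% of all, and 9 (22.0%) above, against 24.2%.

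Cxcl10 rose with stimulation by a log2 fold change of 3.80 under compound 10 (SE 0.35, adjusted p = 2.84e-05) and of 1.57 in vehicle (SE 0.32, adjusted p = 0.00369), at the levels given above. Isg15 rose by 1.95 under compound 10 (SE 0.23, adjusted p = 9.17e-05) and by 1.19 in vehicle (SE 0.23, adjusted p = 0.00238). In both genes every stimulated library lay above every unstimulated library of the same treatment. These calls held without any single library.

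Ifih1 rose by 1.02 on the log2 scale under compound 10 (SE 0.27, adjusted p = 0.0177) and by 2.14 in vehicle (SE 0.30, adjusted p = 0.000232), again without overlap. The call under compound 10 was lost without library 1 or 2 of its unstimulated cells (0.0593 and 0.158) or library 1 of its stimulated cells (0.0531). Isg20, an exonuclease that degrades RNA, had 8.57, 10.6 and 6.11 CPM in stimulated cells with compound 10, against 3.57 and 3.43 CPM in unstimulated cells with compound 10. In vehicle it had 8.09 and 5.82 CPM in stimulated cells, against 2.16 and 2.26 CPM in unstimulated cells. Stimulated libraries were higher throughout. The log2 fold change was 1.27 under compound 10 (SE 0.30, adjusted p = 0.00966) and 1.65 in vehicle (SE 0.33, adjusted p = 0.00289), and the call under compound 10 was lost without library 1 or 2 of its unstimulated cells (0.0662 and 0.0833). Cmpk2 rose in vehicle, at 8.83 and 5.52 CPM in stimulated cells, against 3.53 and 2.45 CPM in unstimulated cells (log2 fold change 1.27, SE 0.41, adjusted p = 0.0355). That call was lost without either unstimulated library (0.0693 and 0.207) or library 1 of stimulated cells (0.23).

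Oasl2, a relative of the oligoadenylate synthetases, fell with stimulation, at 2.40, 1.56 and 2.97 CPM in stimulated cells with compound 10, against 4.94 and 6.37 CPM in unstimulated cells with compound 10. In vehicle it had 1.51 and 2.28 CPM in stimulated cells, against 11.2 and 8.84 CPM in unstimulated cells. The log2 fold change was -1.30 under compound 10 (SE 0.33, adjusted p = 0.0133) and -2.40 in vehicle (SE 0.37, adjusted p = 0.000501), without overlap in either. The call under compound 10 was lost without library 2 of its unstimulated cells (0.122). Retained-intron transcripts took 49.6% of the Oasl2 TPM in stimulated cells with compound 10 and 41.4% in stimulated cells with vehicle, against 73.1% in unstimulated cells with compound 10 and 79.0% in unstimulated cells with vehicle.

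Ifit2 had 1.44, 0.717 and 1.40 CPM in stimulated cells with compound 10, against 3.77 and 2.27 CPM in unstimulated cells with compound 10. In vehicle it had 1.36 and 0.779 CPM in stimulated cells, against 3.96 and 5.81 CPM in unstimulated cells. It was lower in every stimulated library, with log2 fold changes of -1.36 under compound 10 (SE 0.43, adjusted p = 0.0407) and -2.18 in vehicle (SE 0.48, adjusted p = 0.0049). Under compound 10 the call was lost without library 1 or 2 of its unstimulated cells (0.316 and 0.0578), library 2 or 3 of its stimulated cells (0.107 and 0.0715) or either unstimulated vehicle library (0.0543 and 0.0591).

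Ddx58 had 8.01, 8.47 and 7.25 CPM in stimulated cells with compound 10, against 13.2 CPM in both unstimulated libraries with compound 10. In vehicle it had 8.04 and 7.91 CPM in stimulated cells, against 15.3 and 19.4 CPM in unstimulated cells. The stimulated libraries were lower throughout, with log2 fold changes of -0.74 under compound 10 (SE 0.20, adjusted p = 0.0187) and -1.12 in vehicle (SE 0.22, adjusted p = 0.00231). Its call under compound 10 was lost without library 1 or 2 of its unstimulated cells (0.106 and 0.109) or library 3 of its stimulated cells (0.0722). So Ifih1 and Ddx58, the genes of the helicases MDA5 and RIG-I, were called in opposite directions with stimulation. Those calls are on counts summed over all transcripts of a gene. Protein-coding transcripts took 8.04% to 15.7% of the Ddx58 TPM over the groups, and retained-intron transcripts took 39.9% to 51.5% of the Ifih1 TPM.

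Dtx3l fell by 0.88 on the log2 scale with stimulation under compound 10 (SE 0.27, adjusted p = 0.0359) and by 1.86 in vehicle (SE 0.30, adjusted p = 0.000805). The call under compound 10 was lost without library 1 or 2 of its unstimulated cells (0.164 and 0.121) or library 2 or 3 of its stimulated cells (0.124 and 0.127). Parp9 fell in vehicle by 0.96 (SE 0.26, adjusted p = 0.0158), a call lost without library 2 of unstimulated cells (0.0908) or library 1 of stimulated cells (0.122). Sp100 fell by 0.66 under compound 10 (SE 0.19, adjusted p = 0.0257) and by 0.85 in vehicle (SE 0.21, adjusted p = 0.0098). Its call under compound 10 was lost without library 1 of unstimulated cells (0.251) or library 3 of stimulated cells (0.105), and that in vehicle without library 2 of unstimulated cells (0.089) or library 1 of stimulated cells (0.0697). Trim25 fell by 1.62 under compound 10 (SE 0.22, adjusted p = 0.000244), a call that held without any single library. In vehicle its log2 fold change was -0.05 (SE 0.24, adjusted p = 0.905). Samd9l was called in vehicle, at 2.45 and 2.58 CPM in stimulated cells, against 4.39 and 6.78 CPM in unstimulated cells (log2 fold change -1.15, SE 0.37, adjusted p = 0.0366). That call was lost without library 2 of unstimulated cells (0.268), either stimulated library (0.137 and 0.119) or library 3 of stimulated cells with compound 10 (0.0532).

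**Figure D4:**
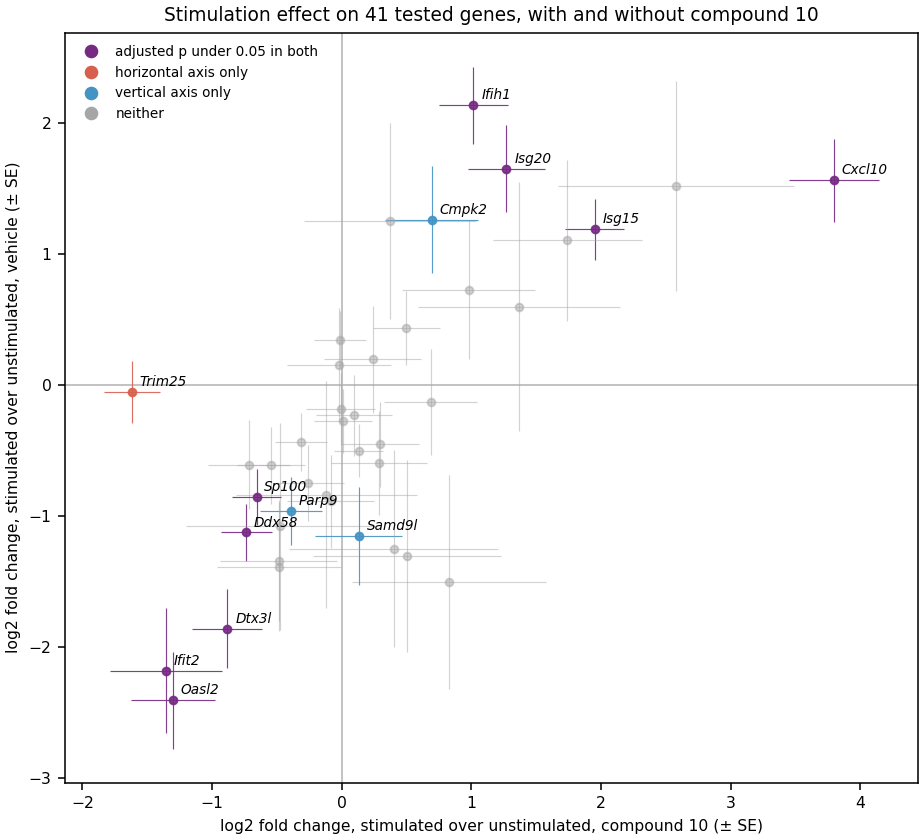
Log2 fold change of stimulated over unstimulated cells for the 41 tested genes, with compound 10 (horizontal axis) and with vehicle (vertical axis), with bars of 1 standard error and colours for the comparison in which a gene was called. Cxcl10, Isg15, Isg20 and Ifih1 lie in the upper right and Oasl2, Ifit2 and Dtx3l in the lower left, while Trim25 lies far left at about 0 on the vertical axis.

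Over the 5 tests, 19 of the 41 genes were called at least once and 22 never. The matching share over all tested genes was not counted, and the single tests called 1.03% to 28.1% of them. The count of 19 therefore does not set these genes apart. The 22 were Cxcl9, Ifit1, Ifit3, Oas1a, Oas3, Oasl1, Dhx58, Zbp1, Eif2ak2, Adar, Trim21, Bst2, Ifitm2, Ifitm3, Mx1, Rsad2, Rnf213, Lgals9, Ifi27l2a, Ifi35, Ifi44 and Xaf1. Their log2 fold changes ran from -2.27 to 2.58 over the tests, the extremes belonging to Ifit1 and Cxcl9. Cxcl9 had 112 counts over all libraries, and Ifit1 had 13.7 and 4.19 CPM in the unstimulated vehicle libraries. The median SE over all genes was 0.30 for compound 10 in stimulated cells and 0.33 in unstimulated cells.

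Of the 10 genes lower with compound 10 in either state, 6 had a promoter window, and 3 of these held the response element core (Cxcl10, Ifih1 and Trim30a). Of the other 31 tested genes 27 had a window and 13 held the motif.

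The genes that carry the interferon signal changed in both directions with compound 10. Of 24 tested genes of receptors and signalling, 8 were higher and 7 lower in stimulated cells, and 3 were higher and 6 lower in unstimulated cells. Over all tested genes 11.7% were higher and 11.4% lower in stimulated cells, and 4.45% were higher and 2.91% lower in unstimulated cells. Stat2, a transcription factor of the type I route, was higher in stimulated cells with compound 10 (log2 fold change 1.89, SE 0.28, adjusted p = 0.000545), and Ifngr1, a chain of the interferon gamma receptor, was higher in both states (1.78, SE 0.18, and 1.32, SE 0.18). Irf8, an interferon regulatory factor, was lower in both (-2.25, SE 0.17, and -1.86, SE 0.19), and the feedback inhibitor Socs1 was lower in unstimulated cells (-1.71, SE 0.24).

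Of 12 tested adaptors and kinases of nucleic acid sensing, 1 was higher and 3 were lower with compound 10 in stimulated cells and none was called in unstimulated cells. In either direction 23.1% of all tested genes were called in stimulated and 7.36% in unstimulated cells. The higher one was the kinase gene Ikbke (log2 fold change 1.30, SE 0.26), and the lower ones were the kinase gene Tbk1 (-0.99, SE 0.19), Traf6 (-0.81, SE 0.18) and Ifi203 (-1.57, SE 0.31).

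Ifng, the gene of interferon gamma, had 1240, 756 and 728 CPM in stimulated cells with compound 10, against 1849 and 792 CPM with vehicle, and 38.3 and 27.3 CPM in unstimulated cells with compound 10, against 27.9 and 14.2 CPM with vehicle. The groups overlapped in both states, and the gene was not called for compound 10 in either state. Of 20 type I and type III interferon genes 15 had 0 counts in every library, and all 20 together had 63 counts over the 9 libraries.

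Genes of the GTPase families, which are outside the list, were also lower with compound 10. Of 10 tested guanylate-binding protein genes 8 were lower with compound 10 in stimulated cells and 6 in unstimulated cells, with median log2 fold changes of -1.65 and -2.26. Of 14 immunity-related GTPases 10 and 8 were lower, with medians of -1.84 and -1.77. None of either family was higher. Over all tested genes 11.4% were lower in stimulated cells and 2.91% in unstimulated cells. The medians of the 41 interferon-stimulated genes, -0.09 and -0.50, were nearer to 0, and the difference between the lists was not tested.

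**Figure D5:**
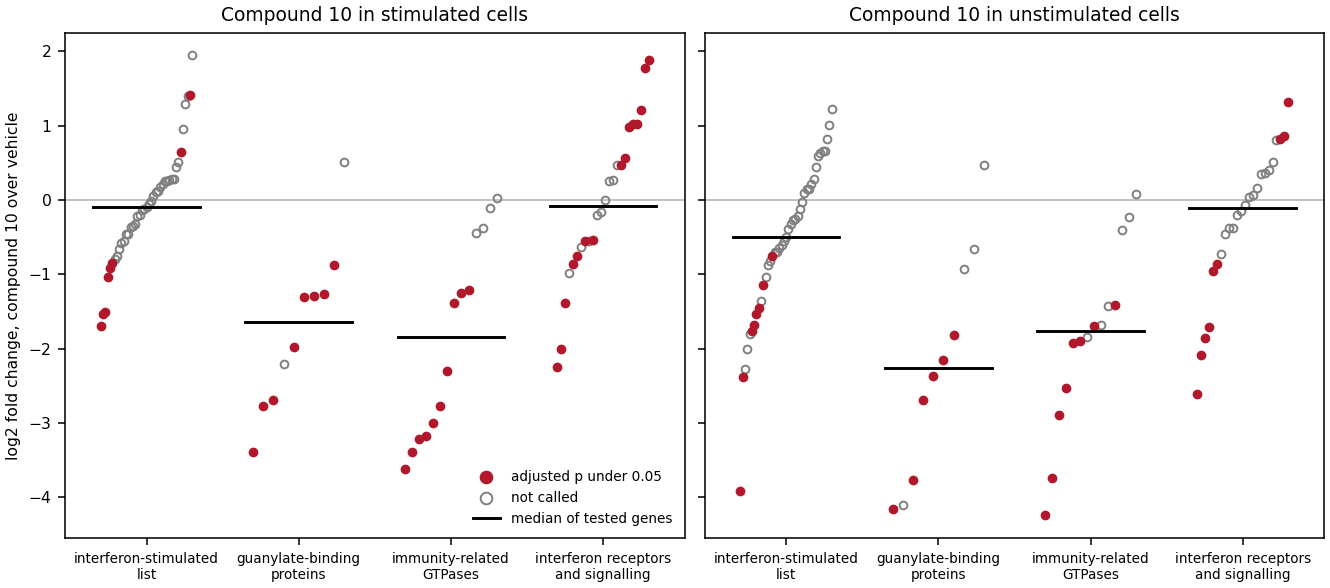
Log2 fold change of compound 10 over vehicle for each tested gene of the interferon-stimulated list and of 3 other lists, in stimulated cells (left) and unstimulated cells (right), with filled points for called genes and a bar at each list's median. The 2 GTPase families lie mostly below -1, and the interferon-stimulated list is spread around medians of -0.09 and -0.50.

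Counts of 4 genes could be shared with a near-identical copy. Ifit3 had 203 counts over all libraries against 42 for Ifit3b, Trim30a 2648 against 374 for Trim30d, Oas1a 650 against 4 for Oas1g, and Ifi27l2a 10220 against 1 for Ifi27l2b. How kallisto split their reads cannot be checked from these tables, so Ifit3 and Trim30a are the least certain of the 4.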

How the data were processed

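RNA sequencing of splenic CD4+ T cells was deposited with 1 transcript table for each library. Qiagen kits were used for extraction and Clontech SMART-seq for the libraries, per the labels' protocols. Trimming was with cutadapt and quantification with kallisto on mm10, per the submitters' processing notes; versions and annotation were not given in the sources used here. Deposited estimated counts are kallisto's values per transcript, not normalized between libraries, per the file headers. The TPM values (corrected for transcript length, with the same sum in each library) stand beside them as the authors deposited them. Reads of near-identical transcripts are split by kallisto's model, which can shift counts between copies.

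Of 109617 transcripts 108214 matched GENCODE M21 when the identifier's version was ignored, and 63964 with it. Estimated counts were summed per gene and rounded, and filtered with edgeR's filterByExpr by group. All 9 libraries (10669821 to 21852830 counts) were fitted together, with the 4 groups of the sample titles as coefficients, TMM scaling and 2-sided tests in edgeR 4.0.16 under R 4.3.3 (glmQLFit, robust, and glmQLFTest). Benjamini-Hochberg adjustment ran over 14011 genes, with a threshold of 0.05. The SE of a log2 fold change is its absolute value over the root of F, and the biological coefficient of variation was 0.244. CPM values are counts scaled to the TMM-adjusted library size. The test was also run on simulated counts, drawn independently and without shifts between libraries of a group. That run does not bear on how the calls moved with single libraries. Replicate libraries of a group differed by far more than sampling noise (mean chi-square per gene of 17.8 to 248), so none was counted as a repeat of another.

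The members and lists were chosen with earlier results of these data known. All members were described; values per library were given for every member called for compound 10 or with stimulation, and beyond the members at most 4 called genes per list, by smallest p, of which 1 is not reported here. Promoter windows came from RefSeq (GRCm38.p6). Alternatives were median-of-ratios scaling, DESeq2 1.42.0, no filter and a stricter filter on counts (10 CPM in 2 libraries), limma 3.58.1 on log2(TPM + 1), ribosomal RNA genes left out, a replicate block, only the groups compared, copies summed, each library left out, and both vehicle libraries richest in ribosomal RNA left out.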

Additional observations from a re-analysis of the deposited data

Results flagged for a closer look

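The effect of compound 10 on Cxcl10 differed between stimulated and unstimulated cells in a test of the difference itself, by 2.23 on the log2 scale (edgeR's quasi-likelihood test, Benjamini-Hochberg adjusted p = 0.0429, over 3 and 2 stimulated and 2 and 2 unstimulated libraries). For Trim25 the same difference was -1.57 (adjusted p = 0.0421), with compound 10 libraries below vehicle in stimulated and above vehicle in unstimulated cells. Over the alternatives the Cxcl10 difference ran from 1.87 to 2.83, with adjusted p-values up to 0.315, and the Trim25 difference from -1.81 to -1.28, with adjusted p-values up to 0.203.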

How the results depend on the processing

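The alternatives were run gene by gene for the 19 genes called in any test, copies summed aside. None of the 710 values of their called results changed sign, and 40 of the 955 values of results not called did. Of the 1665 values, 1501 kept their side of the threshold, 135 fell short of it and 29 came past it. With limma on log2(TPM + 1), 2 of the genes were called for compound 10 in stimulated cells and 0 for the difference between the states, where edgeR's quasi-likelihood test had 8 and 2 (12 and 8 at an unadjusted p under 0.05). Without library 2 of both vehicle groups, where ribosomal RNA was highest, the genes called were 3 for compound 10 with stimulation, 4 without it (8 with all libraries), 4 for stimulation in vehicle (12 with all libraries) and 0 for the difference. The library numbers were not taken as pairing, since no label ties them. The deviations of same-numbered libraries from their group means correlated over 0.1 in 3 of 6 pairs of groups. The correlation was highest within a treatment, at 0.315 between the compound 10 groups and 0.425 between the vehicle groups, and -0.122 at the lowest. A shared source of same-numbered libraries within a treatment was therefore not excluded. With the replicate block the genes called were 10 and 7 for compound 10 in stimulated and unstimulated cells, 10 and 15 for stimulation under compound 10 and in vehicle, and 0 for the difference between the states. The genes were in part others. For compound 10, Ifit3 and Oasl1 were gained in stimulated cells, and in unstimulated cells Ifit1 was gained and Usp18 (adjusted p = 0.0705) and Trim30a (0.0592) were lost. For stimulation under compound 10, Ifit2 (0.0631), Ddx58 (0.0618), Dtx3l (0.149) and Sp100 (0.0977) were lost and Rsad2, Ifi27l2a, Ifitm2 and Cmpk2 gained. For stimulation in vehicle Rtp4, Trim21 and Parp14 were gained. For the difference between the states Cxcl10 (0.11) and Trim25 (0.109) were lost.

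Leaving out each library in turn gave 3 to 10 genes called for compound 10 with stimulation, 1 to 8 without it, 4 to 10 for stimulation under compound 10 (10 with all), 8 to 13 in vehicle and 0 to 2 for the difference. Over all tested genes, limma called 1195 for compound 10 in stimulated cells and 231 in unstimulated cells, against 3234 and 1031 in the edgeR fit, and the other alternatives gave up to 3478 and 1569. For the difference between the states 144 genes were called, with 13 to 512 under the alternatives, among them 454 with DESeq2, 239 with the stricter filter and 43 with the replicate block. Without the ribosomal RNA-rich vehicle libraries the calls over all genes were 1827 and 295 for compound 10 and 1597 for stimulation in vehicle (3940 with all). On the log2(TPM + 1) scale the median log2 fold change of all genes was -0.21 for stimulation under compound 10 and -0.17 in vehicle, against 0.0036 and -0.05 in the edgeR fit. The share of calls that were higher was 25.4% and 36.9%, against 50.5% and 51%. With ribosomal RNA-rich vehicle libraries left out the share for stimulation in vehicle was 65.6%. The cause of these shifts was not tested. For compound 10 in stimulated cells the low-count genes Mx1, Cxcl9 and Ifi44 had an SE of 0.78, 0.69 and 0.75 on the log2 scale, against a median of 0.30 over all genes.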
